A study of Nicrophorus vespilloides with 60 samples.

Results

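The genes described here are 150 transcripts of larval heads of the burying beetle *Nicrophorus vespilloides* that were higher when parents were absent in each of 4 experimentally evolving lines. They were chosen from 13761 genes by their own response to the loss of care. For every gene, counts were divided by the library total and multiplied by 1000000 (CPM), and the mean of log2(CPM + 1) in full care libraries was subtracted from that in no care libraries within each line. Genes with a mean of 1 to 500 CPM, and a mean response of the NC population between 0.5 and 2 times that of the FC population, were ranked by the smallest of their 4 line responses (3699 genes met these limits), and the 150 highest were taken. The response to the loss of care therefore chose the members, and it is given below as a description. Where calls of this response are printed, nothing is read from them.

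Burying beetles breed on small vertebrate carcasses. Parents prepare and defend the carcass, and they feed their larvae with regurgitated food. Larvae of this species can also survive and feed themselves on a prepared carcass after the parents have gone, and the care they get is known to alter their growth and survival.

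RNA (polyA-selected) came from pooled heads of first-instar larvae, with 1 library per family and 46 libraries in all. The NC population had evolved with both parents removed before the larvae hatched, and the FC population had evolved with parents left in place. Each population was held as a pair of lines, all founded from the same source. N1 and F1 are taken as block 1 and N2 and F2 as block 2, from the digit of the line name. Line and block therefore cannot be told apart within a population. Families of each line were raised without care (NC environment; 6 libraries of N2, 6 of N1, 6 of F2 and 5 of F1) or with care (FC environment; 5 of N2, 6 of N1, 6 of F2 and 6 of F1). The totals of the libraries ran from 102719698 to 145666277 counts (median 115258788), and the factors of the trimmed mean of M-values (TMM) ran from 0.870 to 1.27. These factors averaged 0.0928 higher in no care than in full care libraries on the log2 scale, so that TMM scaling makes the response of a gene smaller by that amount on average. Libraries hold whole heads, and more cells of a type and more RNA per cell cannot be told apart.

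All 150 members passed the filter used for testing, which kept 11777 genes. By annotation 148 members (98.7%) were protein-coding and 2 were long non-coding RNAs, beside 97.5% and 1.87% of the tested genes. The median gene span was 3129.5 bases among members and 2575 bases among tested genes. Their median of mean CPM was 30.2, against 13.2 for tested genes. Of the members, 44 had a mean under 10 CPM and 24 had a mean over 100 CPM, within a range from 1.51 to 494 CPM. Product names came from the study's list of genes differentially expressed only in the NC population. That list was itself chosen on these data, and it named only 6 members. Of these, 4 are uncharacterized proteins. LOC108564791 is named for the heavy chain H3 of inter-alpha-trypsin inhibitor, and LOC108568406 for a sodium-independent sulfate anion transporter. No marker list of nerve, muscle, gut or other tissue could be matched beyond these names, and the labelled tissue was not checked against markers.

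Across the members the median response was 1.45 in N2, 1.57 in N1, 1.73 in F2 and 1.98 in F1, in log2(CPM + 1) units. The smallest of the 4 responses ran from 3.37 for the first member to 0.99 for the last. It was over 2 for 15 members and over 1.5 for 41. The mean response of the NC population lay below that of the FC population for 121 of 150 members, and the median ratio of the means was 0.792 (0.501 to 1.30). The smallest response fell in an NC line for 118 members. Just inside the last rank stood LOC108561770 (gene7402, smallest response 1.001) and LOC108565308 (gene10591, 0.99). Just outside it stood LOC108561584 (gene7230) and LOC108560950 (gene6662), both at 0.99.

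In the model fitted across all genes, 127 members were called higher without care in the FC population, where 24.3% of tested genes were called higher. In the NC population 105 were called higher, where 17.3% of tested genes were. These counts repeat the choice of the members. The difference between the responses of the NC and FC populations (the interaction) was called for 0 members and for 0 of 11777 genes with edgeR's quasi-likelihood test. At an unadjusted p under 0.05 it was called for 15 members, each with the weaker response in the NC population, and for 7.98% of tested genes (3.21% in that direction). DESeq2 called 0 members. The rule limited the ratio of the responses, so the interaction is not independent of it.

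The member of highest rank was LOC108560741 (gene6470), which was near 0 in most families raised with care. In N2 it ran from 0.707 to 155 CPM without care (median 24.5, n = 6), against 0, 0.0338, 0.101, 0.124 and 0.355 CPM with care. In N1 it ran from 0.519 to 194 CPM without care (median 43.5, n = 6), against 0.126 to 16.9 CPM with care (median 1.15, n = 6). F2 had 15.6 to 569 CPM without care (median 98.2, n = 6), against 0.0982 to 4.06 CPM with care (median 1.12, n = 6). In F1 the no care libraries had 41.5, 64.1, 77.9, 186 and 604 CPM, against 0 to 0.718 CPM with care (median 0.0700, n = 6). The environments did not overlap in N2, F2 and F1, and they overlapped in N1, where the lowest no care library lay below 3 full care libraries.

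LOC108557453 (gene3569), at rank 2, had a still wider span. It reached 208 CPM in N2, 108 CPM in N1, 655 CPM in F2 and 1042 CPM in F1 without care, against highest values of 0.204, 15.9, 3.04 and 0.184 CPM in the same lines with care. Its no care medians were 10.1 CPM in N2, 38.4 in N1, 108 in F2 and 90.6 in F1. LOC108556538 (gene2739), at rank 3, was at 0 counts in 3 of 5 full care libraries of N2 and in 3 of 6 of F1, and it ran from 0.270 to 335 CPM over the 23 no care libraries (median 34.3). LOC108558593 (gene493) ran from 0.819 to 391.5 CPM without care (median 50.3, n = 23), against 0.0292 to 229 CPM with care (median 2.44, n = 23). The full care value of 229 CPM belonged to 1 family of N1, family 29, and exceeded all 6 no care libraries of that line.

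**Figure D1:**
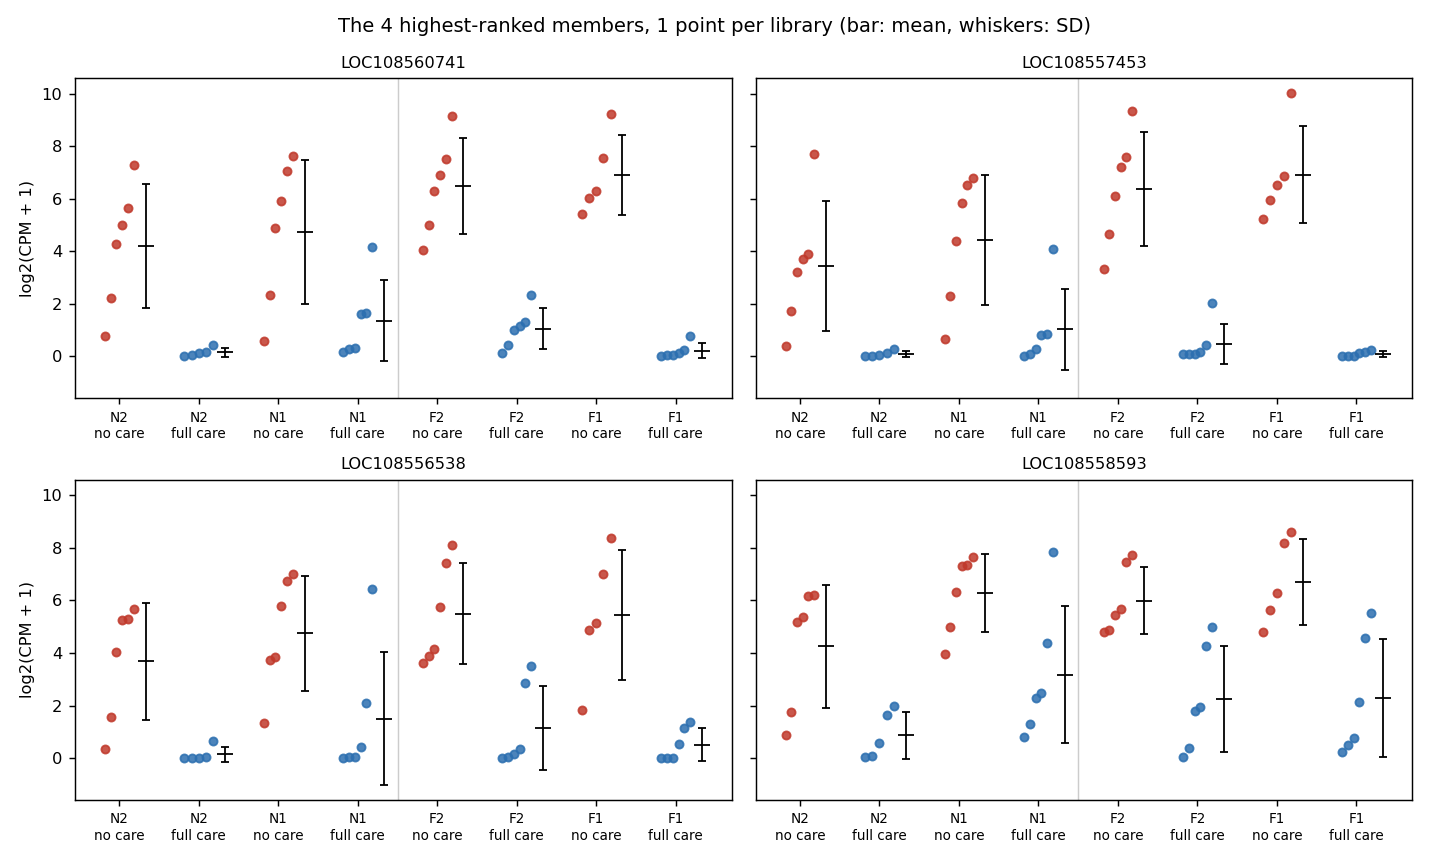
Level of the 4 highest-ranked members, as log2(CPM + 1), in each of 46 libraries, by line and environment (red without care, blue with care; points are sorted by value within a group; bar and whiskers are mean and SD over 5 or 6 libraries). For LOC108560741, LOC108557453 and LOC108556538 most full care libraries sit near 0, with a few families apart. For LOC108558593 full care libraries are spread more widely, with a median of 2.44 CPM. They include F1 families at 22.8 and 45.2 CPM and the N1 family at 229 CPM. No care libraries of 1 group spread over several log2 units.

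The remaining members of the first 10 ranks (LOC108561138, LOC108565020, LOC108564351, LOC108566669, LOC108559870 and LOC108558737) had the same shape. Their medians ran from 19.2 CPM for LOC108566669 to 65.6 CPM for LOC108564351 over the 23 no care libraries, against 0.0717 CPM for LOC108566669 to 1.76 CPM for LOC108565020 over the 23 full care libraries. Members lower in the ranking were usually expressed in both environments. LOC108557245 (gene3350), an uncharacterized protein at rank 17, ran from 5.93 to 368 CPM without care (median 121), against 2.88 to 121 CPM with care (median 18.4, n = 23 each). LOC108564791 (gene10126), the inhibitor heavy chain H3-like gene, had 54.5 to 263 CPM without care (median 105), against 19.98 to 137 CPM with care (median 35.6). The sulfate anion transporter-like gene LOC108568406 (gene13392) had 0.812 to 23.7 CPM without care (median 12.6), against 0.212 to 20.8 CPM with care (median 2.97). LOC108563138 (gene8639), LOC108568634 (gene13595) and LOC108562163 (gene7748), all uncharacterized, had medians of 265, 94.0 and 176 CPM without care, against 48.0, 29.4 and 44.9 CPM with care. The ranges of the environments overlapped for each of these 6 genes.

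Separation of the environments was the exception among members even within a line. All no care libraries exceeded all full care libraries for 33 members in N2, 29 in N1, 34 in F2 and 62 in F1, where 5.32%, 2.66%, 2.96% and 6.21% of tested genes did so. Over all 46 libraries together this held for 0 members, and for 1 of 11777 genes (0.00849%). These counts again come from the response that chose the members.

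The families of 1 line and environment differed more at these genes than at most others. The standard deviation of log2(CPM + 1) between families, after the mean of each of the 8 groups was subtracted, had a median of 1.03 over members (quartiles 0.737 and 1.37). It had a median of 0.258 over all tested genes, and of 0.276 over the 9387 tested genes with a mean of 1 to 500 CPM. All 150 members lay above that last value. The rule ranked differences of means that were not scaled by spread, which can favour genes with a wide spread. Other genes that respond to care were not compared. The median dispersion of the count model was 0.620 for members and 0.0640 for tested genes. LOC108564351 had the widest spread (SD 2.30) and LOC108565055 the narrowest (SD 0.351).

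Members also moved together from family to family. With group means subtracted, the median correlation of a pair of members was 0.363 over 46 libraries, against 0.103 for pairs of tested genes. The first and second principal components held 40% and 36.7% of the variance of the members between families, and 32% and 21.2% of that of all tested genes. Pairs share libraries and library totals, so these values are descriptions. A tree of the members by average linkage, divided where the mean correlation was under 0.4, gave 4 sets of 81, 50, 10 and 9 members, called A, B, C and D here. The division was made after the values were seen and has no test.

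Set A and set B were each tight and nearly unrelated to each other. The median correlation was 0.704 within set A, 0.820 within set B and 0.0825 between them. The sets were cut from these same correlations, which by itself favours higher values within sets than between them. Sets C and D had medians of 0.521 and 0.544 within. Set C had medians of 0.365 with A and 0.145 with B, while set D had 0.318 with A and 0.369 with B. The 50 members of set B stayed together in 1 set when any of the 46 libraries was left out, under another pseudocount and under TMM scaling. Of the 81 members of set A, 70 to 81 stayed together when a library was left out and 58 under TMM scaling. A and B stayed apart in each of these settings and in trees of 3 or 2 branches.

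**Figure D2:**
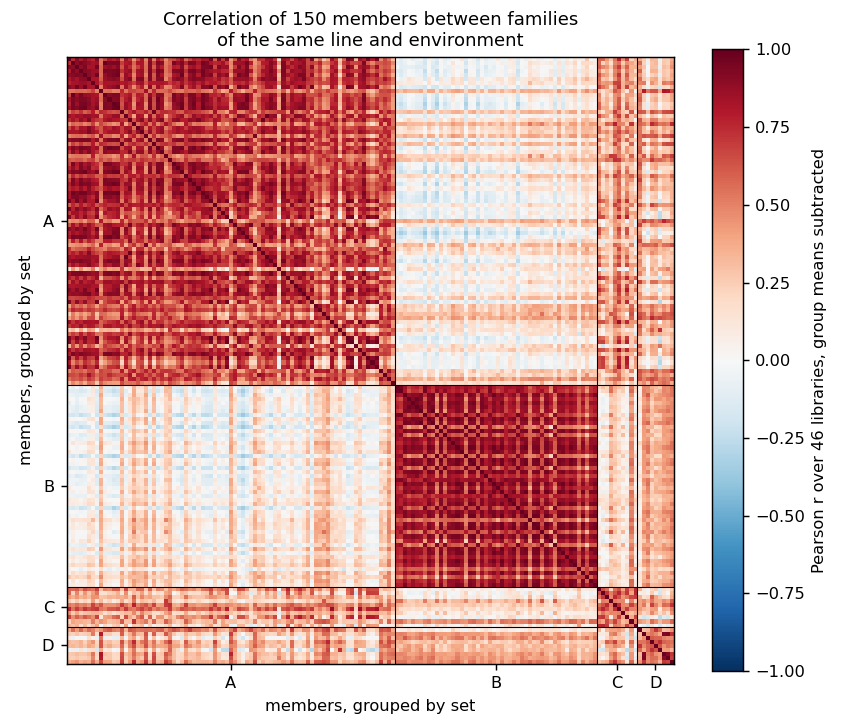
Pearson correlation of every pair of the 150 members over 46 libraries after subtraction of the mean of each line and environment, with members grouped by set (A to D) and by rank within a set. The 81 members of set A and the 50 of set B form 2 blocks of high correlation, with a median of 0.0825 between them.

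Set B held the members that were close to silent with care. It held 14 of the 15 highest ranks, the first among them, and 43 of its 50 members had a median under 1 CPM over full care libraries, which none of the members of sets A, C and D had. The median member of set B had 5.02 CPM without care and 0.188 CPM with care. In set A the median member had 67.8 CPM without care and 18.5 CPM with care, and its highest rank was 13. Genes of set B spanned a median of 1993 bases and those of set A 4046 bases. The median ratio of the NC to the FC population's response was 0.678 in set B and 0.915 in set A. Set B included LOC108560741, LOC108557453, LOC108556538 and LOC108558593. All 6 members with a product name, LOC108557245, LOC108564791 and LOC108568406 among them, were in set A. The names came from a list chosen by response in the NC population, so nothing is read from this placement.

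Most members of set B passed 1 CPM in the same libraries. In 20 of 23 no care libraries at least 25 of its 50 members were at 1 CPM or more (median 47 members, lowest 10), against 5 of 23 full care libraries (median 8 members, lowest 2). The 3 no care libraries under that number were families 3 and 10 of N2, with 10 and 17 members at 1 CPM, and family 35 of N1, with 24. The full care library with the most was family 29 of N1, with 48 of 50 members. At these library totals 1 CPM stood for 102.7 to 145.7 counts. The next highest full care libraries had 32, 31, 31 and 31 members at 1 CPM or more.

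The level of a set in a library was taken as the mean of log2(CPM + 1) over its members. Set B had a mean level of 2.21 ± 1.23 in N2 without care (SD, n = 6), against 0.376 ± 0.151 with care (n = 5). In N1 it had 3.27 ± 1.37 without care, against 1.27 ± 1.44 with care (n = 6 each). F2 had 3.42 ± 1.27 without care, against 0.830 ± 0.585 with care (n = 6 each), and F1 had 3.93 ± 1.42 (n = 5) without care, against 0.701 ± 0.558 with care (n = 6). The N1 full care mean contains family 29 at 4.09, while the next highest family of that group was at 1.45.

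Set A was graded rather than near silent with care. Its mean level was 5.49 ± 1.01 in N2 without care (SD, n = 6), against 4.02 ± 0.846 with care (n = 5). N1 had 6.40 ± 0.304 without care, against 4.81 ± 0.833 with care (n = 6 each). In F2 it was 6.03 ± 0.531 without care, against 4.42 ± 1.45 with care (n = 6 each), and in F1 6.01 ± 0.533 without care (n = 5), against 4.19 ± 0.816 with care (n = 6). The highest full care family exceeded the lowest no care family in N2, N1 and F2, but not in F1. In N1 that was family 27 (6.35), and in F2 it was family 26 (6.15), next to family 32 (5.96).

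With the lines pooled, the environment in which families differed most was opposite in sets A and B, but not in every line. In set B the SD between families was larger without care for 45 of 50 members (medians 1.40 without care and 0.872 with care). In set A it was larger without care for 10 of 81 members (medians 0.807 without care and 1.13 with care). It was larger without care for 55.7% of tested genes. On the log2(CPM + 1) scale differences under 1 CPM are compressed, which bears on set B with care.

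**Figure D3:**
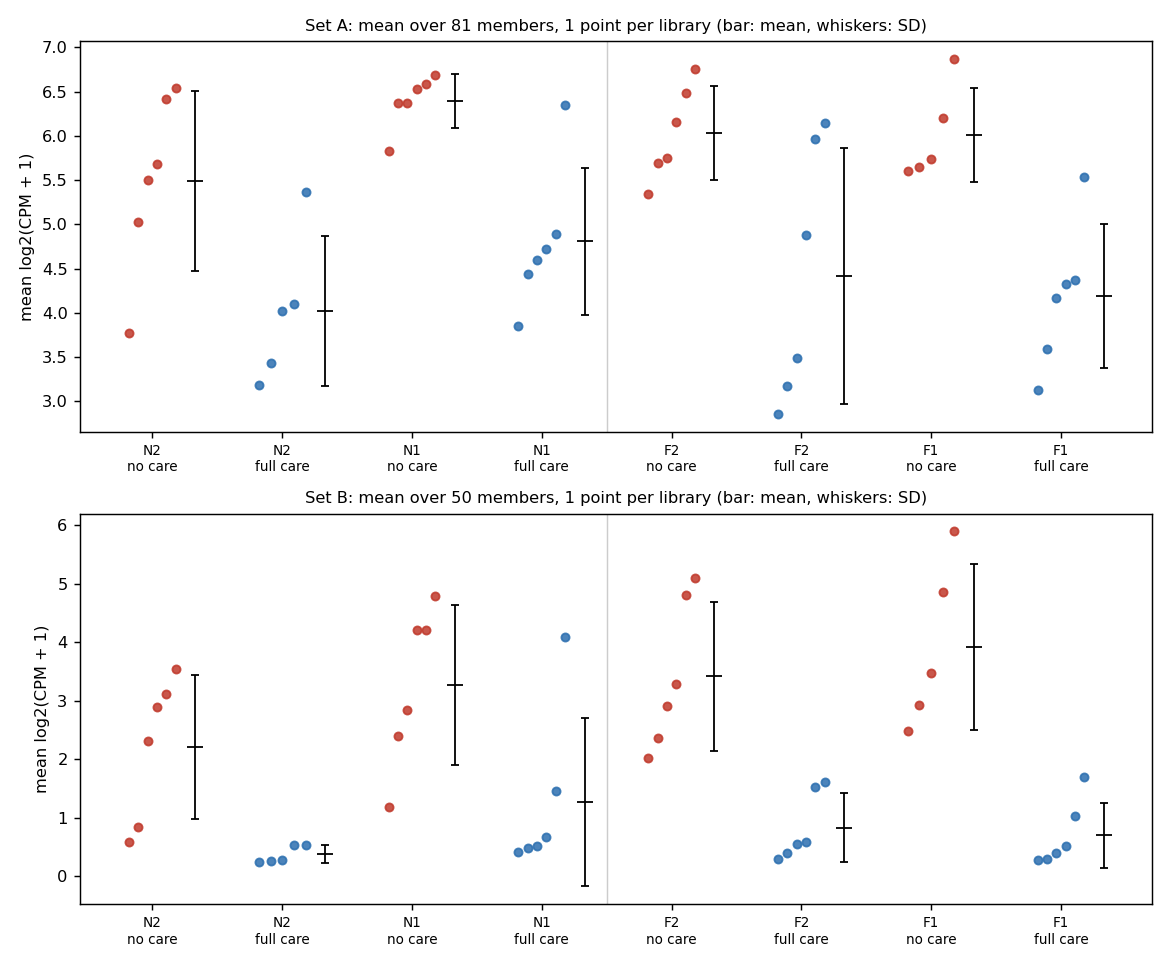
Mean of log2(CPM + 1) over the 81 members of set A (top) and the 50 members of set B (bottom) in each of 46 libraries, by line and environment (red without care, blue with care; points sorted by value within a group; bar and whiskers are mean and SD over 5 or 6 libraries). Set B lies under 2 in every full care library but family 29 of N1 at 4.09, and set A has full care families at 6.35 and 6.15 inside the range without care.

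Single families carried one set without the other. Family 8 of N2, raised without care, had a set B level of 3.54, the highest of its group, and a set A level of 3.78, the lowest of its group. Family 27 of N1, raised with care, had a set A level of 6.35 and a set B level of 0.665. Family 29 of N1, raised with care, had a set B level of 4.09 and a set A level of 4.72, inside the range of its group. Families 3 and 10 of N2, raised without care, had set B levels of 0.578 and 0.842 beside set A levels of 5.51 and 6.41. Over 46 libraries with group means subtracted, the levels of A and B had a Pearson correlation of 0.0535 and a Spearman correlation of 0.119. Without family 29 and 27 of N1, family 8 of N2 and family 26 of F2 together, the Pearson correlation was 0.137, and the median correlations were 0.650 within A, 0.795 within B and 0.122 between them.

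**Figure D4:**
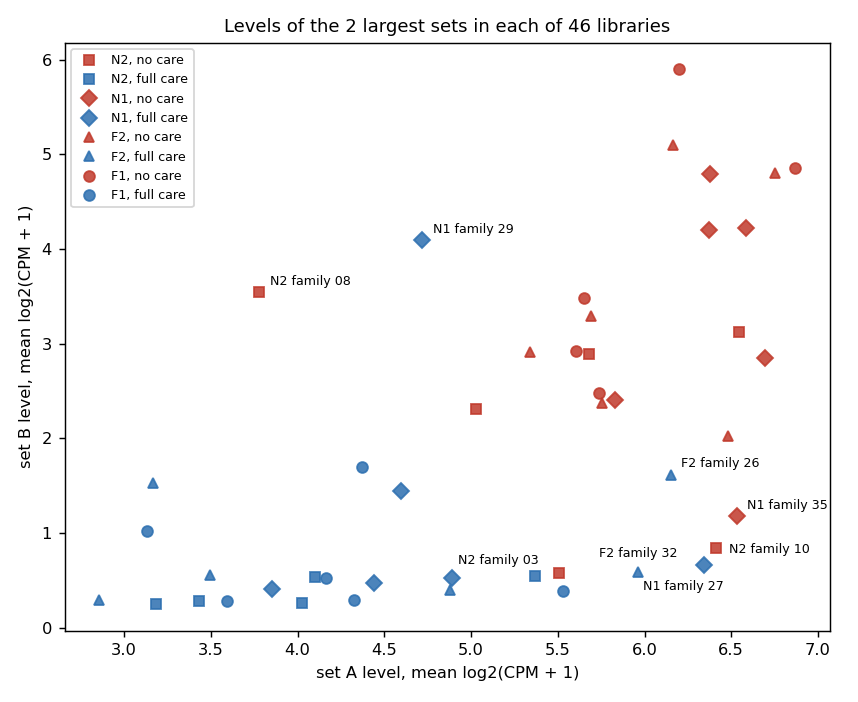
Level of set B (vertical) against level of set A (horizontal), each the mean of log2(CPM + 1) over its members, for 46 libraries, with symbols for lines and colours for environments (red without care, blue with care). Most full care libraries lie at the lower left and most no care libraries at the upper right, and the named families lie high on one axis only, such as family 8 of N2 (3.78 on A, 3.54 on B) and family 27 of N1 (6.35 on A, 0.665 on B).

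Technical measures of the libraries ran with both sets, to different degrees. With group means subtracted, the set A level had a correlation of 0.730 with the TMM factor and of -0.388 with the share of counts held by the 10 most abundant genes, over 46 libraries. After TMM scaling its correlation with the factor was 0.661. The set B level had a correlation of 0.162 with the TMM factor and of 0.0789 with that share. With library totals the correlations were -0.240 for set A and 0.218 for set B. With the number of genes at 0 counts they were -0.374 for set A and -0.617 for set B. Members of set B at 0 counts are themselves part of that number (0 to 20 members in full care libraries). The part of these measures in the levels was not tested. Outside the 150 members, 792 of 11627 tested genes had a correlation above 0.7 with the set A level and 110 had one below -0.7. With the set B level 176 genes were above 0.7 and 0 below -0.7.

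Members that neighbour each other in the annotation mostly belonged to the same set, with no share over random members or all genes beside it. The identifiers of 22 members formed 10 runs of consecutive numbers, and 9 of the runs lay in 1 set. In set B these were gene492, gene493 and gene494 (pairwise correlations 0.827 to 0.944), gene11813, gene11814 and gene11815 (0.953 to 0.980), and gene4976 and gene4977 (0.986). In set A they were 6 pairs, with correlations from 0.630 for gene4491 and gene4492 to 0.969 for gene5099 and gene5100. The mixed run was gene5679, LOC108559870, of set B and gene5680 of set D (0.527). Whether reads of such neighbours were shared in the counting was not tested, and near-identical copies could have split reads between them.

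The comparisons that follow are not the response that ranked the members. The population differences within an environment are an exception in part, since they differ from each other by the interaction, which the rule limited, and they are given as a description. They were made in models fitted across 11777 genes with edgeR's quasi-likelihood test, and a member was called at a Benjamini-Hochberg adjusted p under 0.05 over all of these genes.

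The populations were compared first, as the NC population minus the FC population. Families of both lines were pooled in the fit, with block as a covariate and no term for line. Its SEs and p-values therefore measure the spread between families, and not between the 2 lines of each population. Averaged over environments, 4 of 150 members were called, each lower in the NC population, where 2.98% of tested genes were called in either direction and 1.16% lower. The share of members called was 2.67%, near that of all genes. The median log2 fold change of the members was -0.10, against -0.00 for tested genes. It ran from -0.27 without family 29 of N1 to 0.02 without family 26 of F2, and was 0.00 without the block covariate, so that its direction rests on single libraries. In the full care environment 0 members were called with edgeR and with DESeq2, where 0.170% of tested genes were called, and 3 were at an unadjusted p under 0.05, as were 7.53% of tested genes. In the no care environment 4 members were called, each lower in the NC population, where 2% of tested genes were called in either direction and 0.807% lower. The median of the members there was -0.39, against 0.00 for tested genes. LOC108560183 (gene5956), called in the average, and LOC108564085 (gene9495), called without care, are mentioned after their values were seen.

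A pair of set C members was called in both of these comparisons. The long non-coding RNA LOC108566379 (gene11550) had 3.95 to 13.3 CPM in the NC population without care (median 9.50, n = 12), against 11.7 to 28.1 CPM in the FC population without care (median 17.5, n = 11). The highest library of the NC population lay above 3 libraries of the FC population, and the other 11 lay below all of them. With care it had 1.76 to 6.82 CPM in the NC population (median 3.14, n = 11), against 2.78 to 8.13 CPM in the FC population (median 3.95, n = 12). Averaged over environments its log2 fold change was -0.74 ± 0.15 (SE, adjusted p = 0.00307, edgeR), with a fitted value of -1.10 ± 0.21 without care. LOC108563464 (gene8927) had 19.2 to 85.9 CPM in the NC population without care (median 40.8, n = 12), against 47.7 to 267 CPM in the FC population without care (median 108, n = 11). With care it had 11.6 to 30 CPM in the NC population (median 16.05, n = 11), against 9.06 to 38.4 CPM in the FC population (median 19.2, n = 12). Averaged over environments its log2 fold change was -0.85 ± 0.19 (adjusted p = 0.00934, edgeR), with a fitted value of -1.41 ± 0.27 without care.

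Within blocks the directions held for both genes, but only block 2 passed the threshold. In block 2 alone (N2 minus F2) the difference averaged over environments was -1.06 for LOC108566379 (adjusted p = 0.0014, edgeR) and -1.21 for LOC108563464 (adjusted p = 0.00753). In block 1 alone (N1 minus F1) it was -0.41 and -0.50 (adjusted p = 0.425 and 0.43, edgeR). LOC108568103 (gene1328) of set A was called in the average over environments at -0.47 ± 0.13 (adjusted p = 0.0357, edgeR), with -0.06 in block 1 alone and -0.92 in block 2 alone. LOC108556349 (gene2549) of set A, called without care, had a fitted value of -1.09 ± 0.30 there, with -0.36 in block 1 alone and -1.62 in block 2 alone.

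Over the members as a whole the population difference had opposite signs in the blocks in the average and with care. Without care both medians were below 0. The median log2 fold change averaged over environments was 0.54 in block 1 alone and -0.79 in block 2 alone, with 0 and 17 members called, where 0.85% and 6.53% of tested genes were called. In the full care environment the medians were 0.90 in block 1 and -0.89 in block 2, with 0 members called in each, where 0.153% and 0.197% of tested genes were called. In the no care environment they were -0.11 and -0.69, with 0 and 5 members called, where 0.0085% and 2.7% of tested genes were called.

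Between blocks, as block 2 minus block 1, 1 of 150 members was called, where 12.1% of tested genes were called in either direction and 5.89% lower. This was LOC108562291 (gene7871) of set B, lower in block 2 by -0.73 ± 0.25 (adjusted p = 0.0467, edgeR), and the call was lost when any of 22 of the 46 libraries was left out. In block 2 it had medians of 22.3 CPM in N2 and 22.6 CPM in F2 without care, against 28.6 CPM in N1 and 42.8 CPM in F1. At an unadjusted p under 0.05, 22 members were called (26.5% of tested genes), and DESeq2 called 9 at an adjusted p under 0.05. All 50 members of set B had a value below 0, with a median of -1.05, but these members moved together and are not independent. Their median for N2 minus N1 was -2.64, and -1.35 without family 29 of N1. For F2 minus F1 it was -0.05, with 24 of 50 members above 0.

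The NC lines were then compared with each other, as N2 minus N1 averaged over environments. Of the 150 members, 4 had a log2 fold change above 0 and 40 were called, all lower in N2, where 13.6% of tested genes were called in either direction and 7.20% lower. The median was -0.90 over members and -0.01 over tested genes. By set, 29 of 50 members of B were called (median -2.64), 9 of 81 of A (median -0.69), 1 of 10 of C and 1 of 9 of D. These counts rest in large part on family 29 of N1. Without it 8 members were called, all of them among the 40, with 0 of set B (median -1.35), 7 of set A (median -0.71) and 1 of set D. Without it 144 members still had a value below 0, with a median of -0.82, but members move together and are not independent. The log2 TMM factors averaged 0.141 without care and -0.0167 with care in N1. In N2 they averaged -0.0034 and -0.0917. Their part in this difference was not tested.

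LOC108563264 (gene8744) of set A had the lowest adjusted p and kept its call without any single library. Without care it had 208 to 620 CPM in N2 (median 303), against 444 to 838 CPM in N1 (median 573, n = 6 each). With care it had 74.4, 78.0, 78.1, 102.6 and 199 CPM in N2, against 123 to 343 CPM in N1 (median 227, n = 6). N2 was lower in both environments, with overlap in each, and the log2 fold change was -0.91 ± 0.20 (SE, adjusted p = 0.00456, edgeR). The calls of LOC108566421, LOC108569090 (both set A) and LOC108559876 (set D) also held without any single library.

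A pair of set B genes with low adjusted p values lost their calls without that family. LOC108569998 (gene2444) had 0, 0.0776, 0.101, 0.135 and 0.142 CPM in N2 with care, against 0.0249 to 21.4 CPM in N1 with care (median 0.164, n = 6), where family 29 was the highest. Without care it had 0.223 to 2.38 CPM in N2 (median 1.33), against 0.545 to 20.7 CPM in N1 (median 7.24, n = 6 each). Its log2 fold change was -3.83 ± 0.87 (adjusted p = 0.00506, edgeR), and -1.79 without that family (adjusted p = 0.0698). LOC108558586 (gene492) was at 0 counts in 3 of 5 full care libraries of N2. Its fitted value was -4.65 ± 1.21 (adjusted p = 0.0124, edgeR), and -3.15 without that family (adjusted p = 0.0536).

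The FC lines were compared as F2 minus F1 averaged over environments. Of the 150 members, 118 were above 0 and 6 were called, all higher in F2, where 5.68% of tested genes were called in either direction and 3.23% higher. The share of members called was 4%, near that of all genes. The median of the members was 0.22, and it was 0.03 without family 26 of F2, when 3 members were called. Set A had a median of 0.26 (76 of 81 above 0, 3 called), set D 0.56 (9 of 9 above 0, 3 called) and set B -0.05 (24 of 50 above 0, 0 called). The median of set B changed sign with single libraries left out, from -0.33 to 0.41. LOC108558535 (gene4492) of set A had 62.8 to 153 CPM in F2 without care (median 99.8, n = 6), against 34.3, 49.3, 54.3, 54.9 and 75.1 CPM in F1. With care it had 11.5 to 64.9 CPM in F2 (median 28.2), against 9.67 to 23.01 CPM in F1 (median 15.1, n = 6 each). Its log2 fold change was 1.04 ± 0.22 (adjusted p = 0.00355, edgeR).

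A pair of set D members had the next lowest adjusted p in this comparison. LOC108566944 (gene12045) had 20.6 to 49.1 CPM in F2 without care (median 28.3, n = 6), against 10.8, 13.3, 22.1, 23.8 and 31.2 CPM in F1. With care it had 4.05 to 16.3 CPM in F2 (median 8.74), against 1.47 to 4.40 CPM in F1 (median 3.06, n = 6 each). The environments each overlapped between the lines, and the log2 fold change was 1.11 ± 0.24 (adjusted p = 0.00386, edgeR). LOC108566445 (gene11609) was higher in F2 by 1.38 ± 0.33 (adjusted p = 0.00967, edgeR).

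The difference between these line contrasts, (N2 minus N1) minus (F2 minus F1), was added after their directions had been seen. It equals the population difference in block 2 minus that in block 1. It was called for 12 of 150 members, all below 0, where 4.42% of tested genes were called in either direction and 2.08% below 0. The median was -1.21 over members and -0.02 over tested genes, and 3 members were above 0. The 12 were 10 of set A and 2 of set D. Set B had a median of -2.68 and 0 members called by edgeR with all libraries, 0 to 8 with a library left out (8 without family 9 of F1) and 11 by DESeq2. SEs were over 1 for members such as LOC108560741 (-3.99 ± 1.25, adjusted p = 0.0563, edgeR). LOC108566944 had -1.43 ± 0.33 (adjusted p = 0.0103, edgeR), LOC108558535 -1.28 ± 0.31 (adjusted p = 0.0141) and LOC108562167 (gene7759) of set A -1.02 ± 0.25 (adjusted p = 0.0172). These 3 calls held when each library was left out in turn, while the count of members ran from 6 without family 26 of F2 to 24 without family 28 of F2.

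**Figure D5:**
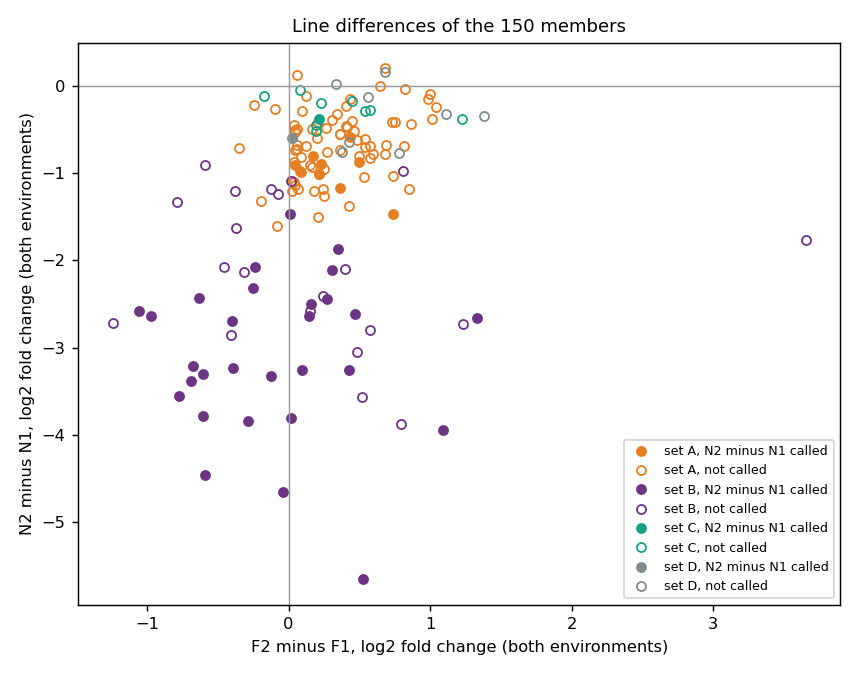
Log2 fold change of N2 over N1 (vertical) against F2 over F1 (horizontal), each averaged over environments, for 150 members by set, with filled points where N2 minus N1 was called (adjusted p under 0.05, edgeR's quasi-likelihood test). Of the 40 filled points 29 belong to set B, and 0 of set B remained called without family 29 of N1.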

How the data were processed

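RNA was sequenced from larval heads of 46 families, and 14 bisulfite samples named in the labels were not analysed here. The authors mapped the reads with HISAT2, quantified RefSeq genes with StringTie and deposited counts per gene as whole numbers, not normalized. Multiples of 4 made up 39.8% of entries between 1 and 100, while 25% of whole numbers are such multiples, so a count of 1 need not be 1 read. No column was without a sample (0 left aside). Library, line and environment came from the sample titles, which give a group such as F1_NC beside the family name. Block was read from the digit of the line name and is inferred. Labels name 1 family per library, and p-values measure the spread between families, not between the lines of a population.

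Each deposited identifier was paired with the RefSeq symbol (assembly Nicve_v1.0) whose place in the gene table equals the identifier's number. The pairing was checked on 82 genes that the study's supplement names, of which 82 matched, and on 676 tRNA records, of which 676 had a mean under 0.2 CPM. It is inferred, so identifiers are given beside symbols. Products came from those 82 genes alone, which the study lists as differentially expressed only in the NC population. Genes outside that list could not be matched by a keyword, so 0 matches do not show absence. Keyword lists (digestion, immunity, detoxification, cuticle, lipid and sugar use, fasting, stress, smell and taste, neuropeptides, transcription, and cell type markers) matched 1 member, LOC108564791, by the word trypsin in digestion and gut, and 0 members in the other lists. Sequences were not analysed here.

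The members and lists were chosen with earlier results of these data known. Named genes were the 10 members of highest rank, those with a product name, the 3 lowest adjusted p values in each direction of a tested comparison, and 2 genes on each side of the last rank. Counts were tested in R 4.3.3 with edgeR 4.0.16 (TMM, quasi-likelihood test) on genes that reached 15 counts in 10% or more of the libraries, in 1 fit of 4 groups with block as a covariate, or of 8 groups for contrasts of lines. A call needed a Benjamini-Hochberg adjusted p under 0.05. Levels and correlations used log2(CPM + 1) in Python 3.11.15 with NumPy 2.4.6, pandas 2.3.3 and SciPy 1.17.1. Alternatives were DESeq2 1.42.0, its size factors in edgeR, other filters, a stricter call, no block covariate, each block alone, TMM-scaled CPM, a pseudocount of 0.25 and each library left out. The steps were tested on simulated data.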

Additional observations from a re-analysis of the deposited data

Results flagged for a closer look

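In a group of 5 or 6 libraries, 1 family was set apart from the others of its group in 2 of 40 cases (the level of all members and of each set in 8 groups), by a gap to the nearest family that passed Dixon's criterion. Chance alone flags about 1 in 20 groups. Family 29 of N1, raised with care, had a set B level of 4.09, and the next family had 1.45. Family 37 of N1, raised without care, had a set A level of 5.83, and the next family had 6.37. The part of library quality in these levels was not tested, and the TMM factors of these libraries were 1.01 and 0.940. The line contrasts of the NC and FC populations differed for 12 members, by the test of the difference itself (edgeR's quasi-likelihood test, adjusted p under 0.05), where 4.42% of tested genes were called. That comparison was added after the directions of the line contrasts had been seen, and its count ran from 6 to 24 with a library left out.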

How the results depend on the processing

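No paired analysis was possible because each labelled family was sequenced once, in 1 group, and shared numbers across populations mark different families. Calls kept their direction in each comparison under all alternatives run, except that 1 member was called higher in block 2 without family 23 of N1. DESeq2 called 7 members for the population average (4.43% of tested genes), 7 without care (3.89%), 9 between blocks (15% of tested genes), 11 for F2 minus F1 (7.74%), 35 for the difference of the line contrasts (6.56%) and 58 for N2 minus N1 (17%), 41 of them in set B. With an adjusted p under 0.01 and an absolute log2 fold change of at least 1, 0, 2, 0, 3, 0 and 1 members were called in the same comparisons in that order and 64 for the response to the loss of care in the NC population. In block 1 alone that response was called for 58 members. The population difference was called there for 0 in the average and 0 without care (0.85% and 0.0085% of tested genes). Block 2 alone gave 17 in the average (6.53% of tested genes). Shares of tested genes are not given for the stricter call or for the 58 members, and nothing is read from those counts. With each library left out in turn, 2 to 7 members were called in the population average, 2 to 7 without care, 0 to 4 between blocks, 3 to 10 for F2 minus F1, 8 to 64 for N2 minus N1 and 6 to 24 for the difference of the line contrasts. For N2 minus N1 the lowest count came without family 29 of N1 and the highest without family 21 of N2, and leaving out family 16, 17 or 18 of N2 gave 22, 25 and 21. For F2 minus F1 they came without families 26 and 28 of F2. The cause was not tested. The rule found 139 of the 150 members again with TMM-scaled CPM, 116 with a pseudocount of 0.25 and 126 to 149 with a library left out. The median correlation of the members was 0.304 with TMM scaling and 0.329 to 0.396 with a library left out, and their median SD was 0.984 to 1.05. Calls of LOC108568103 and LOC108556349 were lost in block 1 alone and when any of 11 and 14 libraries was left out. In full care libraries 0 to 20 of the 50 members of set B were at 0 counts (median 8), where a fitted fold change depends on the prior count.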
